A study of Mus musculus with 2 samples.

Results

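*Basp1* and 9 other genes of neurite outgrowth and growth cone structure were followed through single neural stem/progenitor cells (NSPCs) with low and high lipid droplet content. The listed genes were *Basp1*, *Gap43*, *Marcks*, *Marcksl1*, *Stmn1*, *Stmn2*, *Stmn3*, *Dpysl3*, *Dcx* and *Tubb3*, and 7 of the 10 had a row among the 15046 genes of the count table. *Stmn2*, *Dcx* and *Tubb3* were not analysed here. The list was chosen by measured values of these same cells, above all by the lower *Basp1* level in high PLIN2-GFP NSPCs, so the values of its members in high against low cells, calls included, are a description of the choice and no test of it.

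The cells were NSPCs from the subventricular zone of 6- to 8-week-old male C57/Bl6 mice, grown as neurospheres for at least 5 passages with 20 ng/ml EGF and 20 ng/ml FGF-2 and then in N2-supplemented medium. A retrovirus gave them PLIN2-GFP, a fusion of GFP to the lipid droplet coat protein perilipin 2, and they were kept as 1 stable line, so low and high cells both carried the transgene and were otherwise untreated. The dimmest 25% and the brightest 25% of the cells by GFP were taken as low and as high PLIN2-GFP NSPCs, sorted into 384-well plates and sequenced by SORT-seq, a plate method that counts unique molecular identifiers (UMIs) from the 3' ends of polyadenylated RNA. Of the 304 cells, plate 1 contributed 179 (95 low, 84 high) and plate 2 contributed 125 (72 low, 53 high). The labels call the plates replicates but do not say whether they came from separate cultures, so the spread between them may be technical.

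BASP1, GAP43 and MARCKS are acidic proteins that lie under the plasma membrane, bind acidic phospholipids and calmodulin, are phosphorylated by protein kinase C and regulate the actin cytoskeleton at the cell edge, and they are best known from growing axons. Stathmins bind tubulin dimers and destabilise microtubules, and DPYSL3 belongs to the collapsin response mediator proteins, which couple guidance signals to the cytoskeleton. Several of these genes are also transcribed in dividing neural progenitors, well before a neurite is formed.

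*Basp1* (ENSMUSG00000045763.8) lies on the minus strand of chromosome 15 at 25363277 to 25413764 in GRCm38. *Gap43* (ENSMUSG00000047261.9) is on chromosome 16 at 42248442 to 42340651, *Marcks* (ENSMUSG00000069662.5) on chromosome 10 at 37133375 to 37138920 and *Marcksl1* (ENSMUSG00000047945.6) on chromosome 4 at 129513581 to 129515985. Chromosome 4 also holds *Stmn1* (ENSMUSG00000028832.11) at 134468320 to 134473843. *Stmn3* (ENSMUSG00000027581.12) is on chromosome 2 at 181306459 to 181314500, and *Dpysl3* (ENSMUSG00000024501.20) is a gene of chromosome 18. *Gap43* and *Stmn1* each overlap 1 annotated miRNA gene, neither of which had a row in the table, and the other 5 genes overlap no annotated gene.

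The cells had median totals of 7856 UMIs in low and 11709 in high cells of plate 1, and of 11955 and 14729 in plate 2, so high PLIN2-GFP NSPCs were sampled more deeply on both plates. On each plate low cells came from 8 rows of wells and high cells from the 8 other rows, so the category and the row cannot be told apart. All 7 listed markers of NSPCs were detected, with a summed level of 6553 to 6686 CPM (counts per 1000000 UMIs) in low and 6647 to 6670 in high cells. The 5 microglial markers had no row in the table, and the endothelial and mural list stayed at or below 3.12 CPM. Of 18 markers of neuroblasts and neurons, 14 were in the table and *Nefl*, *Nefm*, *Dlx5* and *Neurod1* were not. Their summed level was 1143 to 1428 CPM in low and 883 to 1006 in high cells, with *Sox4* as the 1 gene of that list called lower in high cells (log2 fold change -0.78). The list of 6 astrocyte markers moved the other way, from 1744 to 1918 CPM in low to 2299 to 2376 in high cells. The part of these 2 lists in the values below was not tested. For the oligodendrocyte lineage list, with 4 of 7 genes in the table, the sums overlapped between the categories, at 3303 to 3641 CPM in low and 3405 to 3511 in high cells.

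For the levels that follow, the cells of a plate and category were added up to 1 library, which gave 4 sums of 778022 to 1029023 UMIs, expressed as CPM with TMM scaling. *Basp1* was at 257 CPM in the low and 134 CPM in the high sum of plate 1. On plate 2 the low sum had 342 CPM and the high sum 113. Both high sums were thus below both low sums, with a mean of 299 ± 60.7 CPM in low and 124 ± 14.8 in high cells (SD, n = 2 plates). The fitted log2 fold change between high and low cells, with the plate as a block over 8348 genes, was -1.25 ± 0.14 (SE). This SE, like those of the log2 fold changes below, was derived from the F statistic of the fit, whose spread is moderated over all genes. It is not the spread between the 2 plates, whose log2 ratios without TMM scaling were -0.86 and -1.54 (SD 0.48). DESeq2 gave an SE of 0.28.

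*Gap43*, whose protein shares the membrane-bound basic domain and the calmodulin binding of BASP1, followed the same direction on both plates. Its level was 188 CPM in low and 154 in high cells of plate 1, and 233 and 111 in plate 2. The 2 plates therefore differed in size, with a small step on plate 1 and a large one on plate 2, and the log2 fold change was -0.66 ± 0.15. *Marcks*, a substrate of protein kinase C that crosslinks actin, was at 1851 CPM in low and 1559 in high cells of plate 1 and at 2249 and 1830 in plate 2. Both high sums lay below both low sums, though the high level of plate 2 came close to the low level of plate 1, and the log2 fold change was -0.27 ± 0.07. Its relative *Marcksl1* was at 852 and 734 CPM in low and high cells of plate 1 and at 823 and 772 in plate 2, a log2 fold change of -0.16 ± 0.09.

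Among the microtubule regulators the steps were smaller or uneven. *Stmn1*, the stathmin of dividing cells, was at 659 CPM in low and 591 in high cells of plate 1 and at 920 and 695 in plate 2, a log2 fold change of -0.28 ± 0.09. *Stmn3*, a membrane-anchored stathmin of neurons, was at 47.4 CPM in low and 24.3 in high cells of plate 1 but at 57.1 and 57.9 in plate 2. The plates thus gave different directions for *Stmn3*, and its log2 fold change of -0.39 had an SE of 0.27. *Dpysl3* was at 220 and 201 CPM in plate 1 and at 240 and 234 in plate 2, a log2 fold change of -0.08 ± 0.13.

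**Figure D1:**
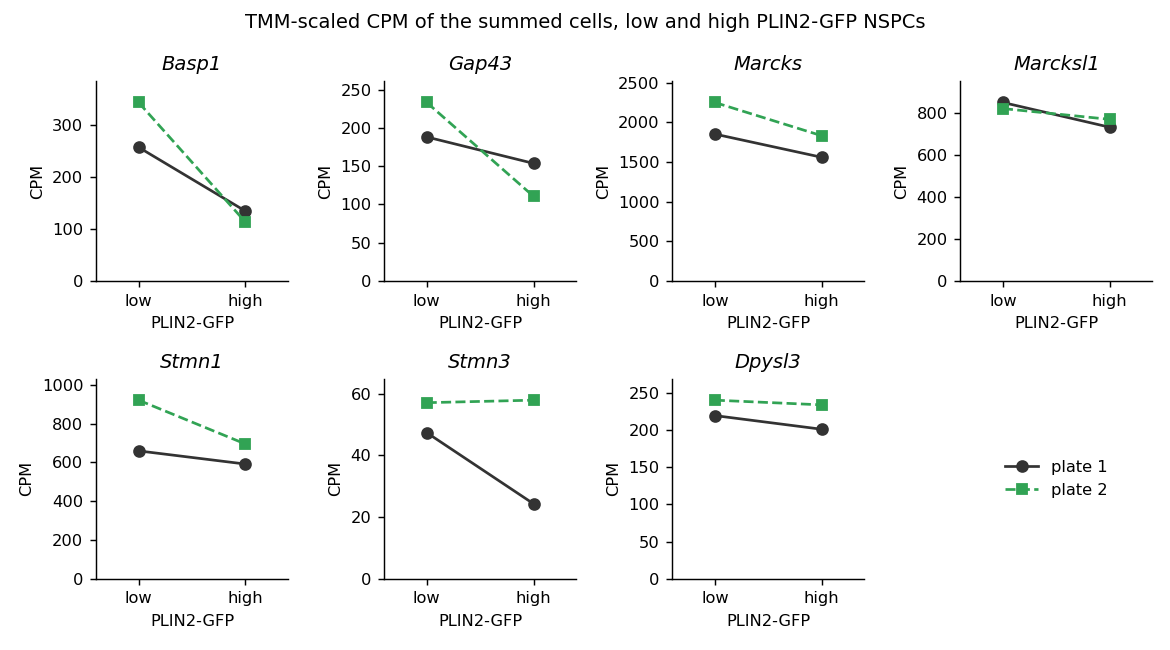
Level of each gene, in TMM-scaled CPM on the vertical axis from 0, in the summed low and high PLIN2-GFP NSPCs of plate 1 (circles) and plate 2 (squares). *Basp1* dropped from 257 to 134 CPM on plate 1 and from 342 to 113 on plate 2, whereas *Stmn3* had a lower value in high cells on plate 1 only.

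All 7 genes passed the filter on low counts, all 7 had a fitted log2 fold change below 0, and 4 of them (*Basp1*, *Gap43*, *Marcks* and *Stmn1*) were called lower in high cells at an adjusted p under 0.1 (edgeR's quasi-likelihood test with the plate as a block, Benjamini-Hochberg adjustment). Of all 8348 genes, 1.26% were called lower in high cells and 2.14% in either direction. The median log2 fold change was -0.28 over the 7 genes and 0.00 over all genes tested. As the genes were picked with these values known, nothing is read from that count. *Gap43*, *Marcks* and *Stmn1* were not called without the plate block, in G1 cells or when any 1 of the 4 sums was left out with no block, where *Stmn1* came to -0.04 and *Marcks* to -0.13 without the low sum of plate 2. In cells thinned to 5000 UMIs, *Gap43* (-0.61) and *Stmn1* (-0.26) were not called. *Marcks* and *Stmn1* were not called by DESeq2, which gave no adjusted p for *Basp1* and *Gap43* and so called neither of them. *Stmn1* was also not called with library size scaling (-0.22) or without the filter on low counts (-0.27).

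*Basp1* was unevenly spread over the cells. Its 703 UMIs lay in 144 of the 304 cells (47.4%), and 25 cells held 50% of them. A set of 26 cells had 10 or more *Basp1* UMIs, with a maximum of 20, and these cells (8.55% of all) carried 51.9% of the *Basp1* UMIs but 13.5% of all UMIs. *Gap43* was about as concentrated, with 31 cells holding 50% of its 579 UMIs. In contrast, *Marcks* and *Marcksl1* were detected in 98.4% and 98.7% of cells, *Stmn1* in 95.1% and *Dpysl3* in 75.3%, and it took 56 to 85 cells to hold 50% of the UMIs of any of these genes. *Stmn3*, with 153 UMIs in all, was found in 32.6% of cells and never above 6 UMIs.

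On plate 1 fewer high than low cells held a *Basp1* UMI, at 34.5% (95% exact binomial interval 24.5 to 45.7) against 52.6% (42.1 to 63.0). On plate 2 the shares were 50.9% (36.8 to 64.9) in high and 52.8% (40.7 to 64.7) in low cells, whose intervals overlapped almost wholly. These intervals cover counting error only. The positive cells averaged 597 CPM in low and 221 in high cells of plate 2, and 468 and 282 on plate 1. Depth enters these values too, as 1 UMI is a lower CPM in a deeper cell. In raw UMIs the positive cells averaged 7.42 in low and 3.26 in high cells of plate 2, but 3.9 and 4.76 on plate 1. High cells were sequenced more deeply, which raises the chance of finding a UMI. With all cells thinned to 5000 UMIs, and 45 shallower ones left out, 48.6% of low and 24.7% of high cells of plate 1 held *Basp1*, and 45.3% of low and 28.0% of high cells of plate 2. At equal depth the share was thus lower in high cells on both plates, and the mean number of *Basp1* UMIs per cell was 1.28 against 0.452 on plate 1 and 1.48 against 0.440 on plate 2. The same comparison gave *Gap43* in 48.6% of low and 34.2% of high cells of plate 1, and in 46.9% and 34% on plate 2.

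**Figure D2:**
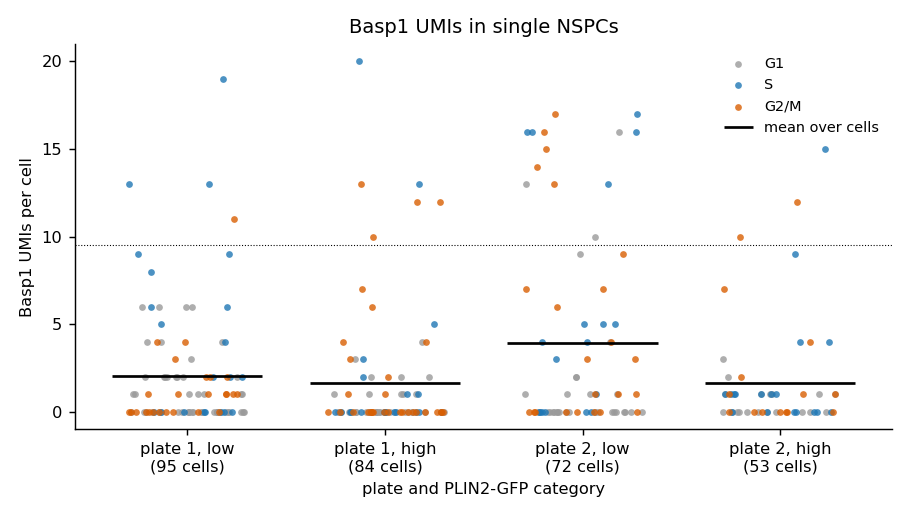
*Basp1* UMIs in each cell (vertical axis) by plate and PLIN2-GFP category, with points spread sideways at random, coloured by cell cycle phase, and a bar at the mean over cells. The dotted line separates the 26 cells with 10 or more UMIs, of which 13 were low cells of plate 2.

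Cells with 10 or more *Basp1* UMIs were not confined to low PLIN2-GFP NSPCs. Plate 1 held 4 such cells among its low and 6 among its high cells. The 6 high cells carried 58.0% of the *Basp1* UMIs of their sum, and their median total was 22454 UMIs, far above the 11709 of all high cells of that plate. Plate 2 held 13 of these cells among its low and 3 among its high cells. By this limit in raw UMIs, which favours deep cells, more low than high cells were found on plate 2 only. Both plates had more low cells with 5 to 9 UMIs (10 low against 3 high on plate 1, and 8 against 2 on plate 2). In cells thinned to equal depth, the mean number of *Basp1* UMIs was lower in high cells on plate 1 too (1.28 in low, 0.452 in high).

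Cells with 10 or more UMIs held 192 of the 282 *Basp1* UMIs of low cells and 37 of the 88 of high cells on plate 2, against 56 of 195 and 80 of 138 on plate 1. The ratio of the categories was therefore also taken without the cells of highest *Basp1*, a choice that uses the level it describes. Over all cells, the log2 ratio of the summed *Basp1* CPM in high over low cells, without TMM scaling, was -0.86 on plate 1 and -1.54 on plate 2. Leaving out the 5% of cells with the highest *Basp1* CPM in every plate and category gave -1.13 and -1.81, and leaving out the top 10% gave -1.53 and -1.80. Without the top 20% the ratios were -1.93 and -2.47. The ratio lay further from 0 with each step on plate 1, and at the first and last step on plate 2. On plate 1 a smaller share of high than of low cells held *Basp1*. An equal cut there removes a larger part of the positive high cells than of the positive low ones. On plate 2 the 10% of cells with the most *Basp1* UMIs held 60.2% of these UMIs in high and 40.4% in low cells. An equal cut there takes a larger part of the level of high cells. The ratios after the cut therefore cannot tell, on either plate, how many cells carry the difference. Giving each cell equal weight, through the mean of the single-cell CPM, gave -1.34 on plate 1 and -1.48 on plate 2. In the sums, the deep, *Basp1*-rich high cells of plate 1 weighed more than in that mean.

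**Figure D3:**
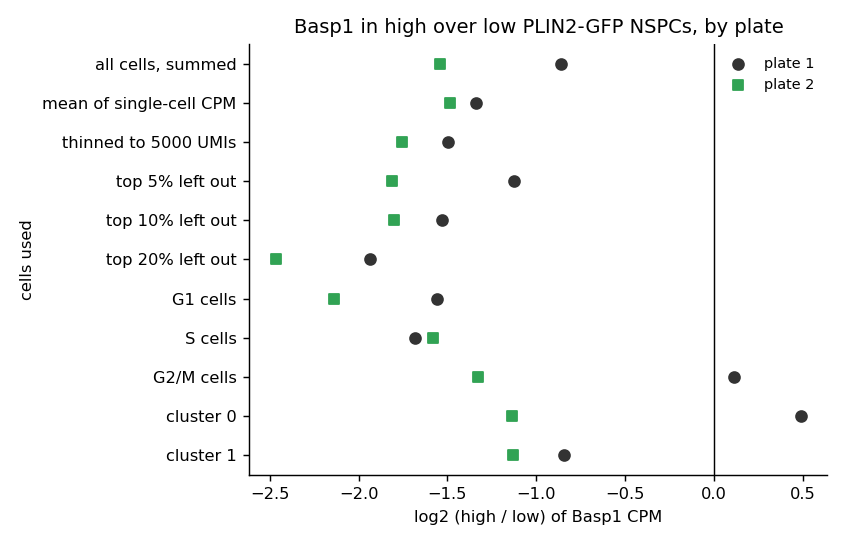
Log2 ratio of *Basp1* CPM in high over low PLIN2-GFP NSPCs (horizontal axis) on plate 1 (circles) and plate 2 (squares) for the cells named on the vertical axis. All values lay below 0 except those of the summed G2/M cells (0.11) and the summed cluster 0 cells (0.49) on plate 1.

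Whether the members varied with the cell cycle was tested on sums of each plate and phase, with the phases that the authors assigned from the expression of phase marker genes. None of the 7 genes is in the phase gene lists supplied with Seurat. G1 held 132 cells, S 77 and G2/M 95. *Basp1* rose in S phase, from 110 CPM in G1 to 315 in S on plate 1 and from 145 to 247 on plate 2 (log2 fold change 1.14, adjusted p = 1.85e-04, edgeR). In G2/M it was at 187 and 305 CPM on the 2 plates, also above G1 (0.94, adjusted p = 0.00119). In each plate both S and G2/M exceeded G1, although S was the highest phase on plate 1 and G2/M on plate 2.

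*Gap43* rose with it, from 134 CPM in G1 to 209 in S and 184 in G2/M on plate 1, and from 113 to 185 and 226 on plate 2. Its log2 fold changes were 0.65 in S (edgeR adjusted p = 0.0197) and 0.70 in G2/M (adjusted p = 0.00680). *Stmn1*, whose protein is phosphorylated at mitosis, rose as well, to 739 in S and 785 CPM in G2/M from 425 in G1 on plate 1, and to 758 and 1059 from 649 on plate 2. Its log2 fold changes were 0.50 (edgeR adjusted p = 0.00441) and 0.80 (adjusted p = 5.98e-06).

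The MARCKS family went the other way. *Marcks* fell from 1812 CPM in G1 to 1588 in S and 1643 in G2/M on plate 1, and from 2673 to 1735 and 1885 on plate 2. The fall was thus mainly that of plate 2, with log2 fold changes of -0.41 in S (edgeR adjusted p = 0.00202) and -0.33 in G2/M (adjusted p = 0.0112). *Marcksl1* was lower in G2/M (-0.25, edgeR adjusted p = 0.0872), at 721 CPM against 856 in G1 on plate 1 and 741 against 883 on plate 2, and was not called in S (-0.13). *Stmn3* (-0.16 in S and -0.48 in G2/M) and *Dpysl3* (-0.38 and -0.21) were not called in either phase.

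**Figure D4:**
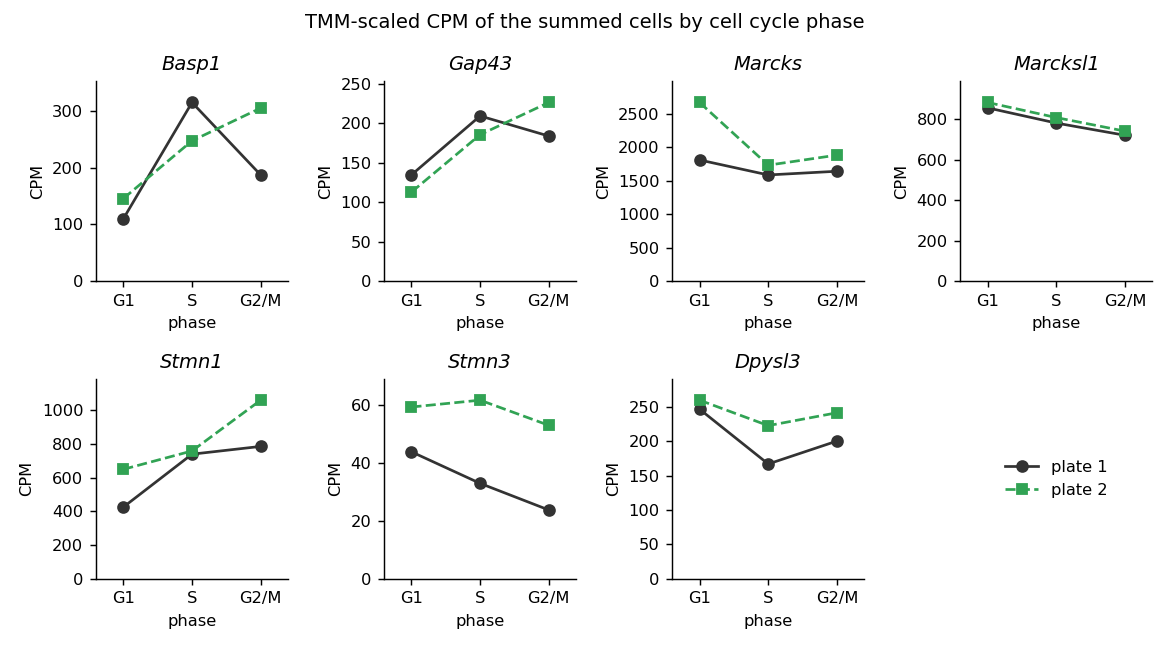
Level of each gene, in TMM-scaled CPM on the vertical axis from 0, in the summed cells of each cell cycle phase on plate 1 (circles) and plate 2 (squares). *Basp1*, *Gap43* and *Stmn1* had higher values in S and in G2/M than in G1 on both plates, and *Marcks* and *Marcksl1* lower ones.

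In all, 4 of the 7 genes were called between S and G1 and 5 of 7 between G2/M and G1, where 12.7% and 16.4% of all 7650 genes tested were called. Cells in S and in G2/M were deeper than cells in G1. The medians were 10994 UMIs in S, 9565 in G2/M and 8290 in G1 on plate 1, and 15301, 12902 and 9825 on plate 2. After thinning to 5000 UMIs, *Basp1* was still called higher in S (0.92, adjusted p = 0.00424) but not in G2/M (0.34, adjusted p = 0.474), *Gap43* was called in G2/M (0.73, adjusted p = 0.0402) but not in S (0.29, adjusted p = 0.658), and *Dpysl3* was called lower in S (-0.88, adjusted p = 0.00794), all by edgeR. Without the plate block, the calls of *Gap43* (adjusted p = 0.105), *Stmn1* (0.194) and *Marcks* (0.173) in S and of *Marcks* (0.261) and *Marcksl1* (0.413) in G2/M were lost. By DESeq2, *Gap43* was called in neither phase (adjusted p = 0.445 in S and 0.236 in G2/M), nor were *Marcks* (0.203) and *Marcksl1* (0.737) in G2/M, whereas *Basp1* (0.00798 in S and 0.0469 in G2/M), *Stmn1* in both phases and *Marcks* in S were called. The call of *Marcksl1* in G2/M held in 1 of 6 alternatives.

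Markers of other cell types also differed between the phases. The oligodendrocyte lineage list was at 4252 and 4057 CPM in G1 on the 2 plates, 3478 and 3473 in S and 2586 and 2674 in G2/M, with *Olig1* (-0.80) and *Olig2* (-0.55) called lower in G2/M. The astrocyte list was at 2498 and 2398 CPM in G1, 1906 and 1991 in S and 1970 and 1639 in G2/M, with *Aldoc* (-0.54) and *Slc1a3* (-0.43) called lower in G2/M. The list of neuroblasts and neurons was at 1244 and 1146 CPM in G1, 1102 and 936 in S and 1191 and 985 in G2/M, with *Sox4* called lower (-0.49) and *Sox11* higher (0.52) in G2/M. The part of these lists in the phase differences of the members was not tested.

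In summed CPM, *Basp1* was higher in S and in G2/M than in G1 in each category of each plate. The log2 ratio of S over G1 was 1.81 in low and 1.69 in high cells of plate 1, and 0.88 and 1.44 on plate 2. In G2/M over G1 it was 0.21 and 1.88 on plate 1 and 0.96 and 1.77 on plate 2. Conversely, the ratio of high over low was -1.56 in G1 and -1.68 in S on plate 1 and -2.14 and -1.58 on plate 2, while in G2/M it was 0.11 on plate 1 and -1.33 on plate 2. In G1, where *Basp1* was lowest, high cells were at 50.8 CPM and low cells at 150.0 on plate 1, against 46.9 and 207 on plate 2. In summed CPM the G2/M cells of plate 1 were alone among the 6 plate and phase sets in having no lower value in high cells, at 187 against 173 CPM. With each cell weighted equally, that set had a mean of 134 CPM in high and 190 in low cells. *Basp1* was detected in 37.5% of its high and 56% of its low cells, and the thinned means were 0.571 and 0.824 UMIs. A test of the category by phase interaction over 12 sums called none of the 7 genes (*Basp1* adjusted p = 0.799, unadjusted p = 0.0167, edgeR) and 3 of 6163 genes, or 0.0487%.

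Of the 26 cells with 10 or more UMIs, 11 were in S, 12 in G2/M and 3 in G1, so that 88.5% were in S or G2/M, compared with 56.6% of all cells. Their median total was 17298 UMIs, against 9444 in the 160 cells with no *Basp1* UMI, so the limit of 10 UMIs favours deep cells. In cells thinned to 5000 UMIs, the share in S or G2/M was 69.2% of the 13 cells with 5 or more *Basp1* UMIs and 52.8% of the 163 with none, against 57.1% of all 259.

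The authors' clustering, made after cell cycle effects were regressed out, split the cells into 155 of cluster 0 and 149 of cluster 1. It was made from the expression of these same cells, so these values carry no test. *Basp1* was at 109 CPM in cluster 0 and 257 in cluster 1 on plate 1, and at 130 and 335 on plate 2 (summed CPM without TMM scaling). *Gap43* was at 119 and 211 CPM on plate 1 and at 127 and 219 on plate 2, and *Stmn1* at 517 and 696 and at 659 and 946. *Marcks* was also higher in cluster 1, by a smaller step (1519 against 1773 CPM on plate 1 and 1965 against 2045 on plate 2), and *Marcksl1* (753 against 779, and 764 against 801) and *Dpysl3* (197 against 212, and 223 against 243) were close to equal. Low PLIN2-GFP NSPCs were mostly in cluster 1 (64 of 95 on plate 1 and 49 of 72 on plate 2) and high ones in cluster 0 (61 of 84 and 40 of 53). Within cluster 1 the log2 ratio of *Basp1* in high over low cells was -0.84 on plate 1 and -1.13 on plate 2. Within cluster 0 it was 0.49 on plate 1, where low cells had 83.2 and high cells 117 CPM, and -1.13 on plate 2. In these sums the 2 plates therefore agreed on a lower *Basp1* level of high cells in cluster 1 and differed in cluster 0. With each cell weighted equally, cluster 0 of plate 1 had a mean of 98.9 CPM in low and 82.0 in high cells. In thinned cells its means were 0.579 and 0.431 *Basp1* UMIs.

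*Basp1* and *Gap43* were found in the same cells more often than the product of their shares gave. Both were detected in 103 cells, against 81.8 from that product, a ratio of 1.26. The ratio was 1.44 in cells thinned to 5000 UMIs (60 cells against 41.5) and 1.73 when at least 2 UMIs of each were required (60 against 34.6). Pairs with *Stmn3* were above 1 as well. *Basp1* and *Stmn3* had 1.13, with 1.18 in thinned cells and 1.35 at 2 UMIs. *Gap43* and *Stmn3* had 1.10, 1.26 and 1.34. With *Marcks*, *Marcksl1*, *Stmn1* and *Dpysl3*, each found in most cells, *Basp1* had 1.00 to 1.04. In each plate and category *Gap43* was more frequent in cells with than in cells without *Basp1*: in 70.0% against 35.6% of low and 69.0% against 47.3% of high cells of plate 1, and in 73.7% against 50% and 74.1% against 38.5% on plate 2. *Gap43* was found in 24 of the 26 cells with 10 or more *Basp1* UMIs, with 5 or more UMIs in 17 of them. Its summed level was 98.6 CPM in cells with no *Basp1* UMI, 142 in cells with 1 to 4, 221 in cells with 5 to 9 and 429 in cells with 10 or more. Over the same 4 bins *Stmn1* was at 636, 652, 926 and 858 CPM, *Marcks* was at 1918, 1777, 1686 and 1615 CPM and *Dpysl3* at 234, 211, 235 and 166.

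**Figure D5:**
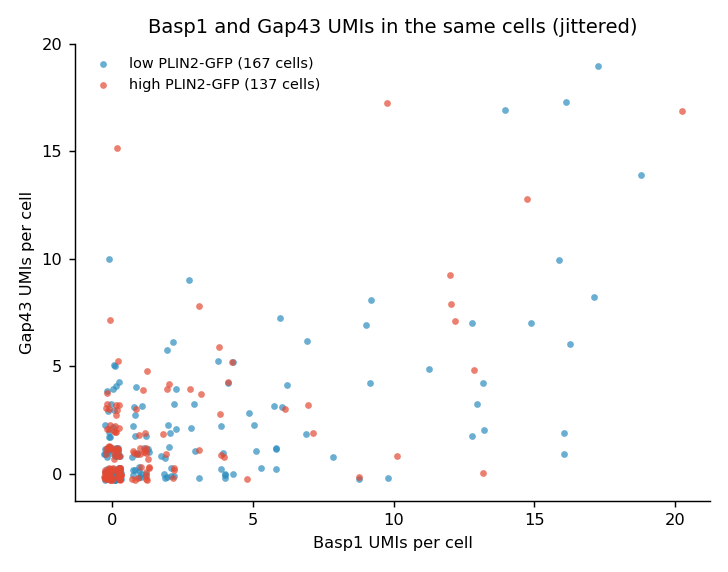
*Basp1* (horizontal axis) and *Gap43* UMIs (vertical axis) in each of 304 cells, coloured by PLIN2-GFP category, with points jittered by less than 1 UMI. Cells with 10 or more *Basp1* UMIs held *Gap43* in 24 of 26 cases, in low and in high cells.

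Of 6080 other genes detected in at least 20% of cells, *Gap43* had the highest Pearson correlation with *Basp1* over the 304 cells (r = 0.40), taken on log2 counts per 10000 UMIs after centring on each plate and category. Depth is shared by all genes of a cell, and *Gap43* kept rank 1 in thinned cells (r = 0.41, 259 cells), after centring also on phase (r = 0.38) and after centring also on cluster (r = 0.37). Taken separately, r was 0.41 in low and 0.40 in high cells of plate 1 and 0.41 and 0.44 on plate 2. No other member came near it: r was 0.15 for *Stmn1*, 0.09 for *Marcksl1*, 0.08 for *Stmn3*, -0.06 for *Marcks* and -0.08 for *Dpysl3*. The remaining pairs among the 7 genes had r between -0.11 and 0.18.

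After *Gap43* came *Ppp1r14b*, an inhibitor of protein phosphatase 1 (r = 0.37), *Lhfpl3*, a tetraspan protein gene (0.33), *Gria2*, an AMPA receptor subunit (0.30), and *Dnmt1*, the maintenance DNA methyltransferase (0.29). In thinned cells *Ppp1r14b*, *Lhfpl3* and *Gria2* stayed within the first 4 ranks, at r of 0.27, 0.27 and 0.35, while *Dnmt1* dropped to rank 205 at r = 0.14. The rank was centred within categories, so it did not use the contrast of high with low cells. In that contrast *Gria2* (log2 fold change -0.70, adjusted p = 0.00208) and *Ppp1r14b* (-0.44, adjusted p = 0.00292) were called lower in high cells by edgeR, *Lhfpl3* had -0.70 (adjusted p = 0.265) and *Dnmt1* 0.17 (adjusted p = 0.815). Over the 12 sums of plate, category and phase, the genes with the highest r with *Basp1* among 6162 were *Pde7a* (0.94), *Uck2* (0.92), *Armcx4* (0.88), *Nop56* (0.86) and *Pdap1* (0.86), with *Gap43* at rank 6 (0.85) and *Stmn1* at rank 81 (0.71). The 12 points come from 2 plates and share the category and phase differences given above.

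Other genes of the same pathways were described from wider lists, chosen with earlier results of these data known. The relatives of the collapsin response mediators, stathmins and doublecortin had 4 tested genes, none called between high and low cells (*Dpysl2* -0.07, *Crmp1* -0.17, *Dclk1* -0.16 and *Dclk2* 0.12). Of 10 tested microtubule-associated proteins none was called either, with the smallest p for the dendritic *Map2* (-0.29, adjusted p = 0.166), *Map1b* (-0.60, adjusted p = 0.410) and the axonal *Mapt* (-0.69, adjusted p = 0.412). Among calmodulins and protein kinase C genes, the partners of the BASP1 group, 0 of 7 were called, and the 2 smallest p belonged to *Prkce* (1.22, adjusted p = 0.208) and *Prkcb* (0.30, adjusted p = 0.451).

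The actin list had 17 tested genes, of which 2 were called lower in high cells and none higher. These were *Actb*, cytoplasmic actin (-0.22, edgeR adjusted p = 0.0187), and *Tmsb4x*, which sequesters actin monomers (-0.25, adjusted p = 0.0218), and the list's median was -0.11 against 0.00 over all genes. Of 10 tested adhesion and guidance receptors 1 was called, *Dcc*, the netrin receptor, at a log2 fold change of -2.45 ± 0.45 (edgeR adjusted p = 3.43e-05). *Nrp1*, a semaphorin co-receptor, had 1.20 (adjusted p = 0.136), *Robo1* -0.56 and *Nrcam* -0.31. Over the 5 lists, 3 of 48 tested genes (6.25%) were called between high and low cells, beside 2.14% of all genes. As the lists were chosen with earlier results known, nothing is read from that share.

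Between phases, 4 of the 45 tested genes of these 5 lists (8.89%) were called in S and 10 of 45 (22.2%) in G2/M, beside the 12.7% and 16.4% of all genes. In G2/M against G1, *Ckap5* (1.04) and *Mapre1* (0.35), both of growing microtubule ends, were higher and *Map1a* (-0.65), *Dclk1* (-0.54), *Nrcam* (-1.02) and *Ncam1* (-0.51) lower. *Ckap5* is in the G2/M gene list supplied with Seurat, so its rise is no independent result. *Calm2*, a calmodulin gene, was higher in G2/M (0.51). Of the actin list, *Pfn2* (-0.54 in S and -0.43 in G2/M) and *Actg1* (-0.20 and -0.19) were lower in both phases and *Tmsb10* in S (-0.26), with adjusted p from 0.00204 to 0.0983 over these calls, by edgeR.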

How the data were processed

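Single NSPCs of 1 PLIN2-GFP line were sequenced by SORT-seq on 2 plates. The authors assigned reads to GRCm38 with Salmon (alevin is also named in the submitters' processing notes, and the versions are not given in the sources used here), and kept cells on mitochondrial share and doublet calls. The deposited values are expected counts of UMIs for each gene in each cell, not normalized. The authors' per-cell table also holds the count of genes detected, the percent of mitochondrial counts and the cell cycle scores, with plate, category, phase and cluster. The study's limit is 20% mitochondrial counts, and 11 of the 304 cells were not below it. Count columns name no cell, so each was joined to the cell with equal total and number of genes, and 0 columns could not be joined.

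Counts were summed per plate and category, plate and phase, or all 3, rounded, and fitted in edgeR 4.0.16 (R 4.3.3) by the quasi-likelihood test, blocked on plate, after TMM scaling and the default filter for low counts (filterByExpr). P-values were adjusted by Benjamini-Hochberg over all genes tested, and genes under 0.1 were called, the level of the study. The fit of 4 sums leaves 1 residual degree of freedom. The plate pairs the sums, as both categories of a number share a plate (correlation of their deviations 0.300 over 8348 genes). A UMI of a gene means a count of at least 1. The fits were tested on simulated data. Python 3.11.15, numpy 2.4.6, pandas 2.3.3, scipy 1.17.1 and matplotlib 3.10.9 were used, with limma 3.58.1 and DESeq2 1.42.0 for alternatives. Coordinates are from GENCODE release M21.

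Genes named are the members, the 5 genes most like *Basp1* over cells and over sums, and the called genes or up to 4 genes of smallest p of each wider list, except a gene that is not reported here. The members and lists were chosen with earlier results of these data known. Counts of reads behind a UMI are not used here.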

Additional observations from a re-analysis of the deposited data

How the results depend on the processing

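In the comparison of high with low PLIN2-GFP NSPCs, 179 genes were called with the plate block. The number fell to 1 without the replicate block, 68 in cells thinned to 5000 UMIs (5620 genes tested), 8 in G1 cells, 11 by DESeq2 and 6 to 22 when 1 of the 4 sums was left out with no block, where the lone sum is assumed to vary like the others. It was 123 at an adjusted p under 0.05 and 238 with library size scaling, where the median of all genes rose to 0.07 and 153 genes were higher and 85 lower, against 74 higher and 105 lower with TMM. For S against G1 (975 calls) the number was 444 without the block, 412 in thinned cells and 207 by DESeq2, and for G2/M against G1 (1255 calls) it was 653, 657 and 317. The interaction had 3 calls, 0 without the block and 0 by DESeq2, with 4 under library size scaling.

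*Basp1* kept a log2 fold change below 0 between high and low cells under every fit run, from -1.88 in G1 cells to -1.04 with the low sum of plate 2 left out, and was at -1.54 on plate 2 alone and -0.86 on plate 1 alone. Without its top 5% or 20% of cells the mean log2 ratio of the plates was -1.47 or -2.20, against -1.67 without the top 10% (-1.80 and -1.53 on the single plates). The difference in the share of *Basp1* cells ranged from -20.6 percentage points in thinned cells to -1.83 on plate 2 alone, with -18.1 on plate 1 alone. The co-detection ratio of *Basp1* and *Gap43* was 1.44 in thinned cells and 1.73 at 2 UMIs, and 1.23 and 1.29 on the single plates. The cause of these shifts was not tested. Centring on phase or cluster, the phase ratios within each category and the phases of thinned cells were chosen after seeing the data.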
